A study of Mus musculus with 7 samples.

Results

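The clustered histone genes are mostly genes that make the replication-dependent core and linker histones, and 68 of the 51138 genes in the count table belong to them. They were chosen by symbol: each starts with Hist1h, Hist2h, Hist3h or Hist4h in the GENCODE naming of mouse genes, and the rest of the symbol gives the class (H1, H2A, H2B, H3 or H4). Hist1h2aj, Hist1h2al and Hist3h2bb-ps among them are annotated as pseudogenes. A further 2 symbols of the annotation, Hist1h2bh and Hist1h2bm, matched no row and were not analysed here. The RNA came from regulatory T cells (Tregs) that had been sorted from spleens of RFP-FoxP3+ mice of the C57/BL6 strain, which carry a red fluorescent reporter of FoxP3, the transcription factor that defines Tregs. The FP group (4 libraries) came from mice injected with 20 ug of IL-2/CD25, a fusion of interleukin-2 with a chain of its own receptor, and the PBS group (3 libraries) from mice of the same reporter strain injected with 100 uL of PBS. Tregs of both groups were taken 72 h after the injection, and the sources used here give neither age, sex nor the number of mice behind each library, so p-values measure the spread between these libraries. Of the 68 genes, 52 passed the filter on low counts and were tested.

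Replication-dependent histone genes are switched on together as cells enter S phase, when new DNA has to be packed into nucleosomes. H2A, H2B, H3 and H4 form the core of the nucleosome, and H1 binds the DNA between cores. Their mRNAs are unusual in ending in a conserved stem-loop in place of a poly-A tail. Stem-loop binding protein (Slbp) holds that structure, and the U7 small nuclear ribonucleoprotein guides the cut after it. The libraries were made by removing ribosomal RNA, with no selection for poly-A, so mRNAs without a tail could enter them.

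The stem-loop is shown because it is the feature that sets these mRNAs apart. The 16 letters below were found on the sense strand of annotated transcripts by the motif GGCNCTTTTCAGNGCC, in which N is any base. All letters are in capitals because the whole stretch is the motif.
H1, H2A, H2B and H3 genes: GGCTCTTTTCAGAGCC
H4 genes: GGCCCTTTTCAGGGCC
The first form was found in 3 of 6 H1, 10 of 20 H2A, 6 of 17 H2B and 5 of 12 H3 genes, and the second in 7 of 13 H4 genes. Every H4 match had the second form, and no match in another class had it. Of 55380 other genes with transcripts, 3 held a match, which is 0.0054%, and they were Trim17, H2bfm and Gm20634. Exons of Trim17 overlap Hist3h2a on the same strand, and those of Gm20634 overlap Hist2h2aa1 and Hist2h3c1. These clustered genes hold the letters themselves. A missing match says only that these letters are not in the annotated transcript.

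Promoters of 60 of the 68 genes were matched in the RefSeq table for GRCm38.p6, each from 250 bases before to 50 bases after the start. Each of 4 motifs was searched on both strands. The CCAAT box, searched by those 5 letters and a site of general activators, was in all 48 promoters of H1, H2A, H2B and H3 genes and in 3 of 12 H4 promoters, those of Hist1h4a, Hist1h4c and Hist1h4d. That is 85% of the 60, against 37.4% of all 32851 promoters. The TATA box, which places the start of transcription and was searched as TATAAA, was in 58.3%, against 13.6% of all promoters. The octamer known from H2B promoters, ATTTGCAT, was in 20%, against 1.74% of all promoters, and occurred in 7 of 18 H2A and 5 of 14 H2B promoters and in none of the other 3 classes. The H1 box, known from linker histone promoters and searched as AAACACA, was in 5 of 6 H1 promoters, all but Hist1h1a. It was in 13.3% of the 60, against 7.18% of all promoters. No match overlapped a match of another motif (199 matches in all). Genes that lie head to head share part of their windows, so 1 match can count for both.

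The promoters of 3 H2A genes are printed because the results below turn on their head-to-head pairs. Capitals mark the CCAAT box, the TATA box and the octamer, on either strand. The first lies between Hist2h2ac and Hist2h2be, which did not change together, the second between Hist3h2a and Hist3h2bb-ps, which also did not, and the third belongs to Hist1h2ak, whose partner Hist1h2bn rose with it.
Hist2h2ac, GRCm38.p6 chr3:96220831-96221130, minus strand: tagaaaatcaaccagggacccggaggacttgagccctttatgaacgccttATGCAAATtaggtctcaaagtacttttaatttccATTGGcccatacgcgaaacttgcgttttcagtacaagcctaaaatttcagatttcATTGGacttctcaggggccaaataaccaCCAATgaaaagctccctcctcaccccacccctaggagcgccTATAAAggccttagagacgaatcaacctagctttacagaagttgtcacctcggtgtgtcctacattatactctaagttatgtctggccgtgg
Hist3h2a, GRCm38.p6 chr11:58954435-58954734, plus strand: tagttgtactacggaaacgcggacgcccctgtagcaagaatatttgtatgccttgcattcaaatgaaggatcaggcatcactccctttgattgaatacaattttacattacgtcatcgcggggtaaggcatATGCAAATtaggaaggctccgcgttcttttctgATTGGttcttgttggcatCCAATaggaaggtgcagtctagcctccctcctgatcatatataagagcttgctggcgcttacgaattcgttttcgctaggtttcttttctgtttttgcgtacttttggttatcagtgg
Hist1h2ak, GRCm38.p6 chr13:21753863-21754162, minus strand: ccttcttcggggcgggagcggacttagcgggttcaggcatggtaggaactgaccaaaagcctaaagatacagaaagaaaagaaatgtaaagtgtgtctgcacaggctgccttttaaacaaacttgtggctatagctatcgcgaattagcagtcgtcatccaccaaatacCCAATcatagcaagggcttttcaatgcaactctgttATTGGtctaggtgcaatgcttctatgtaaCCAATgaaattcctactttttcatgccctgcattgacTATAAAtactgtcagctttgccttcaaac
The Hist2h2ac window held 3 CCAAT matches, 1 TATAAA and 1 octamer, the Hist3h2a window 2 CCAAT matches, 1 octamer and no TATAAA, and the Hist1h2ak window 3 CCAAT matches, 1 TATAAA and no octamer.

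Across the count table the 7 libraries held 9956509 to 13429878 counts, and 15954 genes were tested with edgeR's quasi-likelihood test at an adjusted p of 0.05 (Benjamini-Hochberg). The Treg marker list, which includes the general T cell genes Cd4, Cd3d, Cd3e, Cd3g and Trac, was detected in full (9 of 9). Its summed level was 5921 to 7119 CPM (depth-scaled counts) in FP and 3905 to 4449 CPM in PBS libraries. After FP 5 were higher (Il2ra, Ctla4, Ikzf2, Cd3d and Trac) and 0 lower, while Foxp3 did not pass the test (log2 fold change 0.14, adjusted p = 0.292). Markers of macrophages and monocytes were lower after FP for 12 of 12 genes, with sums of 22.5 to 116 CPM in FP and 583 to 1446 CPM in PBS libraries. Erythroid markers, which cover a cell type rich in dividing precursors in mouse spleen, summed to 43.3 to 68.1 CPM in FP and 39.6 to 56.7 CPM in PBS libraries, with 1 higher and 1 lower of 8 tested and none of the 12 at 0. Plasma cell markers summed to 96.2 to 157 CPM in FP and 59.2 to 66.5 CPM in PBS libraries, with Tnfrsf17 at 0 in all 7. Nearly all of that sum was Xbp1, a gene expressed in many cell types (92.6 to 154 CPM in FP and 54.4 to 63.3 CPM in PBS libraries), while Jchain, Mzb1 and Sdc1 stayed under 1 CPM. B cell, NK cell, CD8 T cell, dendritic cell and neutrophil marker sums (31 genes, 16 tested, 1 higher and 8 lower) stayed at or below 49.1 CPM in every library, with Elane and Klra8 at 0 in all 7. Their part in the histone result was not tested.

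Of the 52 tested histone genes, 50 were higher and 0 lower after FP. Over all genes tested, 39.5% passed the threshold, 21% higher and 18.5% lower (3355 and 2953 genes). With library size alone as the scaling, 2032 were higher and 5033 lower, and the same 50 histone genes were higher. The median log2 fold change of the 52 genes was 4.95, against -0.05 over all genes tested. FP and PBS libraries did not overlap for 51 of the 52 genes, 50 with all FP libraries higher and 1 with all FP libraries lower, whereas 23.2% of all genes had every FP library above every PBS library and 23.5% had every FP library below. A log2 fold change above 3 was called in 46 of the 52 genes and in 1.56% of all genes (249 genes). In bulk libraries, more cells that hold a histone mRNA and more of it per cell cannot be told apart.

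Summed over the 68 genes, histone mRNA reached 31132, 14943, 12622 and 5581 CPM in FP libraries 1 to 4, against 901, 853 and 670 CPM in PBS libraries 1 to 3. The lowest FP library was 6.19 times the highest PBS library, and the means stood 19.9-fold apart (log2 ratio 4.31). As a share of all counts, the genes held 2.61%, 1.27%, 1.23% and 0.584% in FP and 0.0967%, 0.0955% and 0.077% in PBS libraries. FP libraries also differed among themselves by 5.58-fold, and PBS libraries by 1.34-fold.

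**Figure D1:**
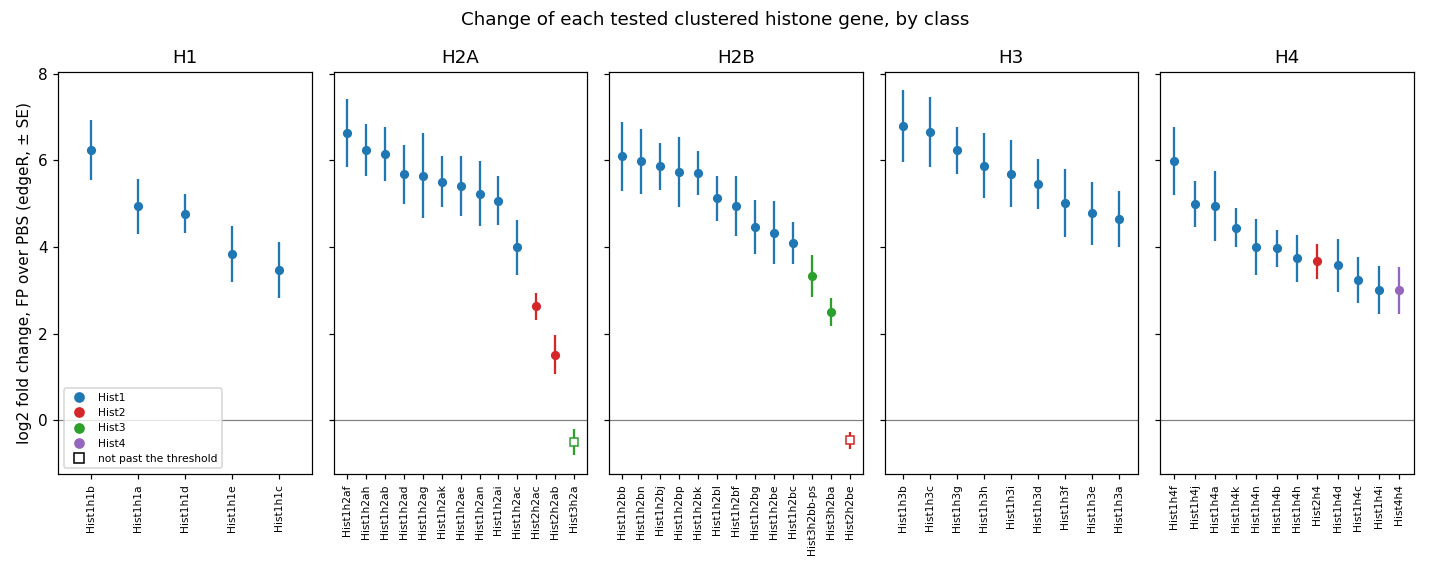
Log2 fold change of FP over PBS (y axis, ± SE of the edgeR fit) for each of the 52 tested clustered histone genes, in 1 panel per class and coloured by cluster. Filled circles passed the adjusted p threshold of 0.05 and open squares did not. The 44 Hist1 genes lie between 3.01 and 6.79, while Hist2h2be (-0.46) and Hist3h2a (-0.51) lie below 0.

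The linker histone H1 had 6 genes, all in the Hist1 cluster, and all 5 that were tested rose, by 3.47 to 6.23 on the log2 scale (median 4.77). Hist1h1c, which encodes the linker subtype H1.2 found in most cell types, was the most abundant clustered histone gene in CPM. It had 4666, 2507, 1489 and 688 CPM in FP libraries, against 242, 207 and 183 CPM in PBS libraries, a log2 fold change of 3.47 with an SE of 0.65 (adjusted p = 0.0052). Every FP library lay above every PBS library, yet this was the smallest rise among the H1 genes. Further values after ± beside a log2 fold change are SE as well. Hist1h1b, the linker subtype H1.5, had 1193, 514, 478 and 207 CPM in FP and 8.37, 8.49 and 6.99 CPM in PBS libraries, the largest H1 rise (6.23 ± 0.69, adjusted p = 0.00051). Hist1h1d, the H1.3 gene, had 1581, 1095, 1024 and 448 CPM in FP libraries and 39.9, 42.3 and 31.6 CPM in PBS libraries (4.77 ± 0.45, adjusted p = 0.000193). Hist1h1e, the H1.4 gene, had 1609, 708, 577 and 248 CPM in FP and 56.7, 61.9 and 46.1 CPM in PBS libraries (3.84 ± 0.64, adjusted p = 0.00316). Both sets of libraries were well apart for these 3 genes, and library 1 was the highest of the FP group in each. The exons of Hist1h1e overlap those of the H2B gene Hist1h2be on the same strand, so reads there cannot be assigned to 1 of them with certainty. The remaining tested gene, Hist1h1a, rose by 4.94, and the untested Hist1h1t, a linker histone of male germ cells, had at most 3 counts in a library.

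H2A had the most genes (20), of which 13 were tested and 12 were higher after FP, with a median of 5.40. Hist1h2ak was the most abundant Hist1 H2A gene, with 382, 187, 185 and 91.4 CPM in FP and 5.73, 4.61 and 3.5 CPM in PBS libraries (5.51 ± 0.58, adjusted p = 0.000405). Hist1h2ab had 304, 149, 144 and 75.8 CPM in FP and 3, 2.71 and 1.31 CPM in PBS libraries (6.15 ± 0.63, adjusted p = 0.000344). Hist1h2ae, at 225, 106, 83.8 and 41.8 CPM in FP against 2.64, 3.15 and 2.18 CPM in PBS libraries, rose by 5.4 ± 0.69 (adjusted p = 0.000983). All 3 make canonical H2A, and none had an FP library near the PBS range. The largest rise in the class was that of Hist1h2af, with 155, 78, 59.3 and 29.3 CPM in FP and 0.881, 0.585 and 0.961 CPM in PBS libraries (6.63 ± 0.79, adjusted p = 0.000693). Few reads lie behind those PBS values, since 3 counts correspond to 0.219 to 0.264 CPM in PBS libraries. For Hist1h2ah, the PBS libraries had 3, 4 and 3 counts, the level of that floor.

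Outside the Hist1 cluster, the 3 tested H2A genes had smaller log2 fold changes. Hist2h2ac had 122, 76.6, 80.6 and 45.3 CPM in FP and 13.8, 13.2 and 12.1 CPM in PBS libraries, a rise of 2.63 ± 0.31 (adjusted p = 0.000342). It was the most abundant tested H2A gene of the PBS libraries. Hist2h2ab had 13.8, 6.91, 6.94 and 3.06 CPM in FP and 3, 2.85 and 2.1 CPM in PBS libraries, and rose by 1.51 ± 0.45 (adjusted p = 0.0228). Its lowest FP library stood next to its highest PBS library, and its call was lost in the limma-voom test (adjusted p = 0.0736), without PBS replicate 2 (0.0647), without PBS replicate 3 (0.092) and with FP replicates 3 and 4 only (0.0673). Hist3h2a had 10.2, 6.38, 3.93 and 5.2 CPM in FP and 9.96, 6.95 and 10.3 CPM in PBS libraries, a log2 difference of -0.51 ± 0.3 that did not pass the test (adjusted p = 0.199). FP library 1 lay inside the PBS range and the other 3 below it. Without FP replicate 1 the difference was -0.80 and passed the test (adjusted p = 0.0308). Hist3h2a overlaps an exon of Trim17 on the same strand, and Trim17 itself had 2.57, 1.77, 5.67 and 4.48 CPM in FP and 4.76, 7.75 and 6.73 CPM in PBS libraries (-0.82, adjusted p = 0.0929).

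H2B had 17 genes, of which 13 were tested and 12 were higher, with a median of 4.95. Hist1h2bb had 1697, 833, 546 and 224 CPM in FP and 12.6, 14.2 and 9.35 CPM in PBS libraries, the largest rise of the class (6.09 ± 0.79, adjusted p = 0.00103). Hist1h2bn had 1254, 448, 476 and 195 CPM in FP and 10.5, 10.7 and 6.9 CPM in PBS libraries (5.98 ± 0.75, adjusted p = 0.000871). Hist1h2be, which shares exonic bases with Hist1h1e, had 1158, 413, 394 and 149 CPM in FP and 29.6, 27.3 and 21.6 CPM in PBS libraries (4.33 ± 0.73, adjusted p = 0.00319). These genes make canonical H2B, and library 4 was the lowest of the FP group in each.

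The 2 tested H2B genes of the Hist3 cluster rose as well. Hist3h2ba had 37.5, 23.1, 26.3 and 13.1 CPM in FP and 4.94, 4.02 and 4.2 CPM in PBS libraries (2.5 ± 0.33, adjusted p = 0.000373). Hist3h2bb-ps, annotated as a processed pseudogene, had 41.1, 24.7, 20.3 and 10 CPM in FP and 2.82, 2.49 and 1.75 CPM in PBS libraries (3.33 ± 0.49, adjusted p = 0.00107). Hist2h2be stood apart from all other H2B genes. It had 3.54, 3.63, 3.38 and 3.42 CPM in FP and 5.2, 5.05 and 4.2 CPM in PBS libraries, so that all FP libraries lay below all PBS libraries, and its difference of -0.46 ± 0.19 did not pass the test (adjusted p = 0.0822). It was the only tested member in which FP library 1 was not the highest of its group, and its FP libraries differed by less than those of any other tested member. With upper-quartile scaling it passed as lower (-0.66, adjusted p = 0.0229), as it did with library size alone (-0.73, adjusted p = 0.0218). These scalings moved the median of all genes to -0.25 and -0.31.

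H3 had 12 genes, and 9 of 9 tested were higher, all in the Hist1 cluster, with the highest class median (5.69). Within Hist1 alone, the medians were 5.69 for H3, 5.58 for H2A, 5.42 for H2B, 4.77 for H1 and 3.99 for H4. Hist1h3b had 530, 286, 187 and 79.2 CPM in FP and 3.26, 2.63 and 1.4 CPM in PBS libraries, the largest rise of any tested member (6.79 ± 0.83, adjusted p = 0.00079). Hist1h3c had 973, 370, 322 and 145 CPM in FP and 4.32, 5.93 and 3.15 CPM in PBS libraries (6.65 ± 0.81, adjusted p = 0.000791). Both values overlap within their SE, so their order is not resolved. In CPM, the H3 gene with the highest mean in FP libraries was Hist1h3f, at 1157, 503, 338 and 142 CPM in FP against 20.3, 16.2 and 13 CPM in PBS libraries (5.02 ± 0.78, adjusted p = 0.00231). Hist1h3e had 969, 343, 324 and 143 CPM in FP and 18.2, 18.4 and 11.8 CPM in PBS libraries (4.78 ± 0.73, adjusted p = 0.00206). The smallest rise was 4.64 ± 0.65 for Hist1h3a (adjusted p = 0.00148), with 218, 86.3, 84.8 and 46 CPM in FP and 4.94, 5.49 and 2.53 CPM in PBS libraries. Even for this gene the lowest FP library was well above the highest PBS library.

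H4 had 13 genes, 12 were tested and all 12 were higher, with the lowest class median (3.86). Hist1h4d had 2018, 838, 745 and 339 CPM in FP and 92.2, 87.9 and 66.2 CPM in PBS libraries, and was the most abundant H4 gene in CPM (3.58 ± 0.61, adjusted p = 0.00351). Hist1h4f had 1789, 693, 621 and 244 CPM in FP and 14.8, 14.9 and 9.96 CPM in PBS libraries, the largest rise of the class (5.98 ± 0.78, adjusted p = 0.00103). Hist1h4h had 1012, 515, 522 and 204 CPM in FP and 44.8, 46.1 and 35.3 CPM in PBS libraries (3.74 ± 0.54, adjusted p = 0.00166). All 3 make the H4 protein of the nucleosome core. Hist2h4, the H4 gene of the Hist2 cluster, had 368, 335, 349 and 127 CPM in FP and 24.5, 25.8 and 19.2 CPM in PBS libraries (3.67 ± 0.4, adjusted p = 0.000373). Its first 3 FP libraries were close together and the fourth was low. Hist4h4, the only member of the Hist4 cluster, had 226, 120, 94.8 and 45.9 CPM in FP and 17.7, 15.1 and 12.8 CPM in PBS libraries (3 ± 0.54, adjusted p = 0.00442), the smallest rise of the class.

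**Figure D2:**
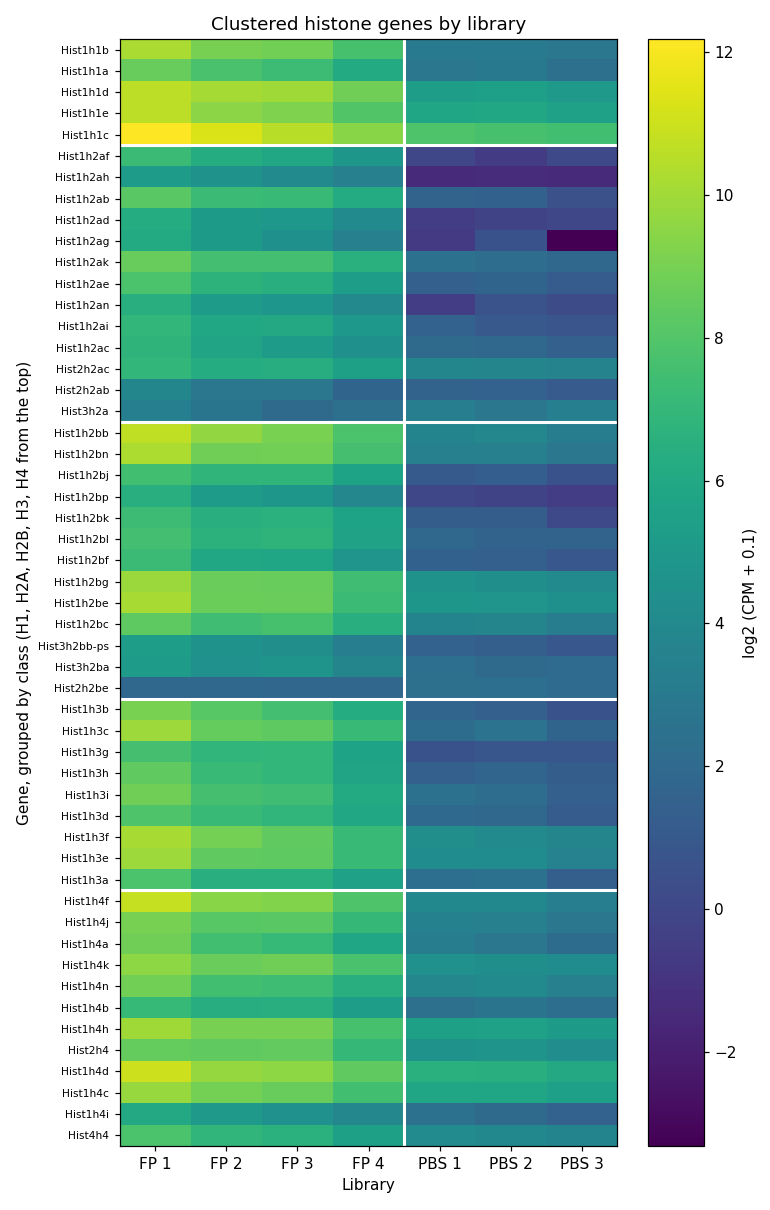
Level of each tested clustered histone gene (rows, grouped by class and sorted by fold change) in the 4 FP and 3 PBS libraries (columns), as log2 of CPM plus 0.1. The FP columns are brighter than the PBS columns except for Hist3h2a and Hist2h2be, and FP 1 is the brightest FP column in 51 of 52 rows.

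By position, the 68 genes fall into 4 clusters on the GRCm38 genome. Hist1, on chromosome 13, held 54 genes in 3 stretches. The stretch from 21715763 to 22043676 held 23 genes, and 17 of 17 tested were higher, with a median log2 fold change of 5.65. The stretch from 23531050 to 23934851 held 30 genes, and 27 of 27 tested were higher, with a median of 4.94. Hist1h2al lies alone at 51202727 and was not tested. Over the whole Hist1 cluster, 44 of 44 tested genes were higher, with a median of 5.10. Hist2, on chromosome 3 from 96219865 to 96270132, held 10 genes, of which 3 of 4 tested were higher, with a median of 2.07. Hist3, on chromosome 11 from 58948920 to 58956830, held 3 genes, of which 2 were higher, with a median of 2.50. Hist4 is a single gene on chromosome 6 from 136801553 to 136804415. Hist1 supplied 97.4%, 96%, 95.4% and 95.5% of the histone counts in FP libraries and 90.9%, 91.1% and 89.9% in PBS libraries. Hist2 supplied 2.79% ± 0.818 in FP and 5.5% ± 0.268 in PBS libraries (SD, n = 4 and 3). Of the 10 Hist2 genes, 5 had 0 counts in every library and no unique 75-base stretch. The shares of Hist1 and Hist2 cover assigned reads only, so the output of those 5 genes was not measured.

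Many H2A and H2B genes lie head to head, with a short shared promoter between them. Among the genes in the table there were 13 such pairs, with 172 to 305 bases between the starts, and all 13 joined an H2A to an H2B gene. In 10 pairs both genes were tested. Both genes were higher in 8 pairs, all in the Hist1 cluster. All 44 tested Hist1 genes were higher, so any tested Hist1 genes, paired or not, would give that count. The median difference between partners over the 10 pairs was 0.52 on the log2 scale. Differences between unpaired genes were not computed, and the Hist1 medians were 5.58 for H2A and 5.42 for H2B. In the pair of Hist1h2ak and Hist1h2bn, whose promoter is printed above, the values were 5.51 and 5.98. The closest partners were Hist1h2ai and Hist1h2bl, at 5.07 and 5.13. The other two pairs were split. Hist2h2ac rose by 2.63 while Hist2h2be, whose start lies 238 bases away, stood at -0.46, and Hist3h2bb-ps rose by 3.33 while Hist3h2a, 172 bases away, stood at -0.51. Those differences within a pair were 3.10 and 3.84. The Hist2h2ac window contains the whole gap between both starts, with its matches to the CCAAT box, the TATA box and the octamer.

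**Figure D3:**
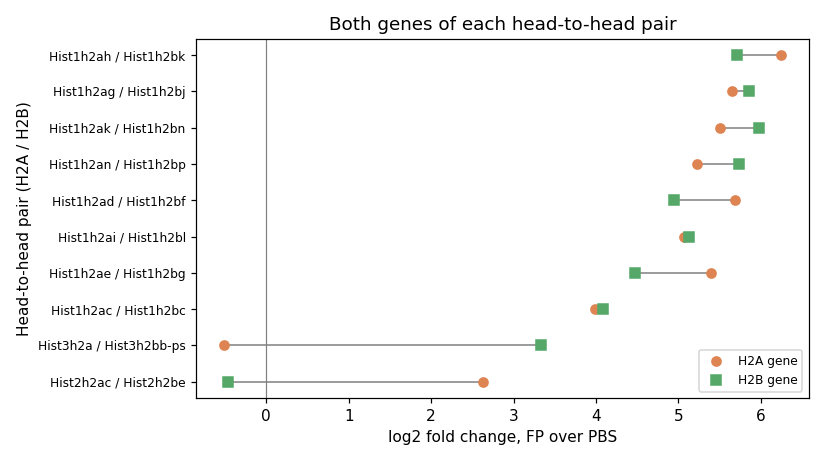
Log2 fold change of FP over PBS (x axis) of the H2A gene (circle) and the H2B gene (square) of each of the 10 head-to-head pairs with both genes tested (y axis), joined by a line. In 8 pairs both points lie above 3, and in the Hist2 and Hist3 pairs 1 point lies below 0.

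The classes did not keep their proportions. Summed by class, H3 had the widest gap, with 5076, 2180, 1788 and 792 CPM in FP and 65, 62.2 and 41.3 CPM in PBS libraries (log2 ratio of means 5.45). H2B had 6217, 2723, 2456 and 1047 CPM in FP and 115, 109 and 81.9 CPM in PBS libraries (4.93), and H2A had 1715, 857, 764 and 398 CPM in FP and 48, 43.7 and 38.9 CPM in PBS libraries (4.42). For H4 the sums were 8693, 4149, 3885 and 1679 CPM in FP and 318, 310 and 235 CPM in PBS libraries (4.0), and for H1 they were 9430, 5034, 3728 and 1664 CPM in FP and 354, 327 and 273 CPM in PBS libraries (3.96). Without FP replicate 1 the ratio was 4.82 for H3 and 4.34 for H2B. Of the histone counts in a library, H3 made up 14.8% ± 1.01 in FP and 6.89% ± 0.625 in PBS libraries (SD, n = 4 and 3). H2B made up 19.1% ± 0.768 in FP and 12.6% ± 0.337 in PBS libraries. The share of H1 was 30.8% ± 1.93 in FP and 39.5% ± 1.16 in PBS libraries, and that of H4 was 29.1% ± 1.53 in FP and 35.6% ± 0.667 in PBS libraries. For these 4 classes the FP and PBS shares did not overlap. H2A, at 6.11% ± 0.722 in FP and 5.42% ± 0.348 in PBS libraries, overlapped. The 6 genes with 0 counts in every library, which belong to H2A, H2B and H3, add nothing to these shares. Hist1h1c alone supplied 15%, 16.8%, 11.8% and 12.3% of histone counts in FP libraries, against 26.9%, 24.3% and 27.3% in PBS libraries. The other H1 genes together, a group formed after its values were seen, supplied 15.3%, 16.9%, 17.7% and 17.5% in FP libraries, against 12.4%, 14.1% and 13.4% in PBS libraries. So within H1 the share of Hist1h1c was lower in FP libraries and that of the other H1 genes higher, both without overlap.

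**Figure D4:**
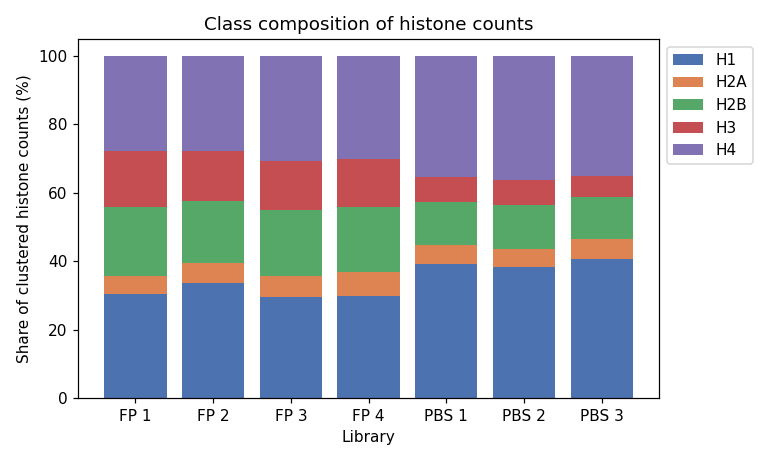
Share of the clustered histone counts (y axis, %) that each class supplied in each library (x axis), as stacked bars that add up to 100%. H3 and H2B take larger shares in the 4 FP libraries than in the 3 PBS libraries, and H1 and H4 take smaller ones.

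Levels between genes can be compared only per length, and the order within a class differed between the groups. In CPM per kilobase of exon, Hist1h1c led the H1 genes with a mean of 1498 in FP and 135 in PBS libraries. Among H2A genes, Hist1h2ak led in FP libraries (538) and was second in PBS libraries (11.7), where Hist2h2ac led (25.1, against 156 in FP libraries). Hist1h2bb led the H2B genes in FP libraries (1624), just ahead of Hist1h2bn (1556), and Hist1h2bg led in PBS libraries (34.5). The gap between Hist1h2bb and Hist1h2bn was smaller than the spread between FP libraries. Hist1h3c led the H3 genes in FP libraries (719) and Hist1h3e in PBS libraries (19.3), and Hist1h4f led the H4 genes in FP libraries (2140) and Hist1h4h in PBS libraries (89.5). Hist1h1d came last of 5 in both groups (140 in FP and 5.11 in PBS libraries), with an annotated exonic length of 7425 bases that sets this value. Across the 52 tested genes, the log2 mean CPM of FP and of PBS libraries had a Pearson r of 0.68 and a Spearman rho of 0.74. These points share libraries and depth, and genes are not independent replicates.

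The FP libraries differed from each other in the same way for nearly all members. FP 1 was the highest FP library in 51 of 52 genes, against 25% of all genes tested, and FP 4 the lowest in 50 of 52, against 31.9% of all genes tested. The median ratio of FP 1 to FP 4 was 4.95 for the members and 1.02 for all genes. Summed levels of other lists varied among the FP libraries as well. A list of other RNAs without a poly-A tail, such as Rn7sk, Rmrp, Rpph1 and Terc, summed to 60685, 43181, 18686 and 14023 CPM in FP and 25168, 20449 and 18712 CPM in PBS libraries, with a median FP 1 to FP 4 ratio of 4.44. None of the 7 tested genes of that list passed the test between FP and PBS (edgeR, 0 higher and 0 lower). The list of DNA replication genes summed to 4096, 3880, 3805 and 2472 CPM in FP and 984, 921 and 842 CPM in PBS libraries, with a median FP 1 to FP 4 ratio of 1.66, and 35 of 35 were higher after FP (median log2 fold change 1.97). Divided by the other RNAs without a poly-A tail, the histone sum was 0.513, 0.346, 0.675 and 0.398 in FP and 0.0358, 0.0417 and 0.0358 in PBS libraries. This ratio differed 1.95-fold among FP libraries, and its lowest FP value was 8.3 times its highest PBS value. Most of that divisor was Rn7sk, with 45197 CPM in FP 1 and 10186 CPM in FP 4. Divided by the DNA replication sum, the histone sum was 7.6, 3.85, 3.32 and 2.26 in FP libraries. In PBS libraries it was 0.916, 0.926 and 0.796. That second ratio differed 3.37-fold among FP libraries, and its lowest FP value was 2.44 times its highest PBS value. Without FP libraries 1 and 2, in which the other RNAs were highest, 49 of 52 histone genes were higher, and the log2 ratio of the summed means was 3.54. That comparison was chosen after seeing the data. In it Hist2h2ab did not pass (0.94, adjusted p = 0.0673) and Hist3h2a passed as lower (-0.93, adjusted p = 0.0152). Of the 7 other RNAs without a poly-A tail, 3 passed as lower in it, Rmrp (-0.72), Rnu12 (-0.87) and Scarna2 (-0.70). Without FP replicate 1 alone, the fold change of 18 of the 52 members was smaller by more than 1.5-fold. The median log2 fold change of all 52 was then 4.40. Leaving out PBS replicate 2 moved the fold change of 1 member, Hist1h2ag, by more than 1.5-fold. Its log2 fold change became 6.98, against 5.65 with all libraries. Leaving out any other single library moved no member by as much. The share of mitochondrial counts was 1.7%, 1.12%, 0.766% and 0.852% in FP and 1.06%, 0.832% and 0.936% in PBS libraries.

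**Figure D5:**
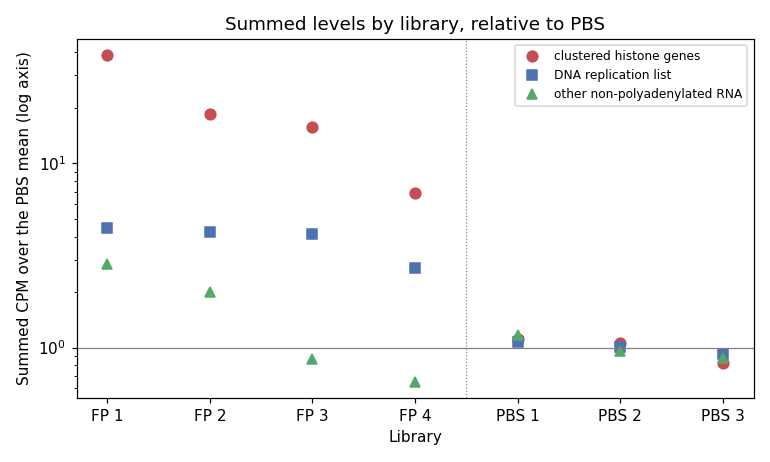
Summed CPM of the clustered histone genes, of the DNA replication list and of other RNAs without a poly-A tail in each library (x axis), divided by the mean of the 3 PBS libraries (y axis, log scale). Histone sums in FP libraries lie above both other sums, and the other RNAs without a poly-A tail lie above 1 in FP 1 and FP 2 and below 1 in FP 3 and FP 4.

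Most histone transcripts are short, so length was compared as well. Of the 52 tested members, 39 had under 1000 exonic bases, and their median log2 fold change was 5.23 with a median FP 1 to FP 4 ratio of 4.96. The 2038 other tested genes of that length had a median log2 fold change of -0.17 and a median ratio of 0.955, and 8.68% of them were higher after FP. Members at 1000 to under 2000 bases (7 genes) had a median of 3.84, against -0.03 in the other genes of that length. At 2000 bases or more (6 genes), the median was 3.49, against -0.04 in the other genes. That longest group holds Hist2h2be and Hist3h2a, which were not called, and 66.7% of it was higher. In both shorter groups of members 100% were higher.

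Not all members could be measured equally well. The 16 untested genes had at most 59 counts over the 7 libraries. Of these, 6 had 0 counts in every library (Hist1h2ap, Hist2h2aa1, Hist2h2aa2, Hist2h2bb, Hist2h3b and Hist2h3c1). By counting error alone, that allows up to 3 counts in each. At most 7.4% of the 75-base stretches of these 6 genes are unique among annotated transcripts. The sources used here do not say how reads that map to several places were counted, so reads of these genes may be missing. The most counted of the others was Hist2h3c2, an H3 gene of the Hist2 cluster, with 15, 10, 10 and 3 counts in FP and 5, 8 and 8 counts in PBS libraries. Hist1h1t, Hist1h2aa, Hist1h2al and Hist1h2ba had over 50% unique stretches and at most 8 counts in all. Hist1h1t, Hist1h2aa and Hist1h2ba are known from germ cells. Among the 52 tested genes the median unique share was 63.2%, and 6 genes were under 20% (Hist1h2af, Hist1h2ah, Hist1h2ai, Hist1h2an, Hist1h3h and Hist1h4n). The values of these 6 may hold reads of near-identical copies or lack reads that map to several places. On the same strand, 4 tested genes overlap an exon of another gene (Hist1h1e, Hist1h2be, Hist1h2ac and Hist3h2a). On the other strand, 14 do, 12 of them H2A genes crossed by a miRNA model that had 0 counts. Of the tested genes whose transcripts hold the stem-loop letters, 23 of 24 were higher (median 4.55), and of those without the letters 27 of 28 were higher (median 5.05).

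Genes that control and process histone mRNA had smaller differences than the mRNAs themselves. Of 31 listed and tested, 22 were higher and 1 lower, with a median log2 fold change of 0.64. With upper-quartile scaling, and likewise with library size alone, 14 were higher and 3 lower, and without PBS replicate 3, 13 were higher. Slbp, which binds the stem-loop, had 143, 136, 126 and 89.5 CPM in FP and 44.4, 38.3 and 37.7 CPM in PBS libraries, a rise of 1.62 ± 0.16 (adjusted p = 5.12e-05). Ccne2 and Ccne1, the cyclins E that activate Cdk2 at the start of S phase, rose by 2.31 ± 0.28 (adjusted p = 0.00021) and 1.80 ± 0.21 (adjusted p = 0.000129), and Cdk2 itself rose by 0.89 ± 0.12 (adjusted p = 0.000322). Npat, the Cdk2 substrate that activates histone transcription, had 79.2, 64.2, 64.7 and 58 CPM in FP and 55.2, 48.4 and 52.1 CPM in PBS libraries. Its rise was 0.36 ± 0.12 (adjusted p = 0.0327), and the call was lost with upper-quartile scaling (0.15) and library size alone (0.08). Leaving out FP library 1 also ended the call (adjusted p = 0.0515), as did leaving out FP library 3 (0.0527), PBS library 2 (0.133) and PBS library 3 (0.0988), or keeping FP libraries 3 and 4 only (0.0569). Casp8ap2, which works with Npat, rose by 0.80 ± 0.16 (adjusted p = 0.00267).

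Among the processing factors, Zfp473, which bridges Slbp and the U7 particle, had 4.29, 3.37, 4.2 and 2.7 CPM in FP and 0.793, 1.32 and 0.961 CPM in PBS libraries (1.80 ± 0.30, adjusted p = 0.00115). The U7 subunit Lsm10 rose by 0.64 ± 0.19 (adjusted p = 0.0221), a call lost with upper-quartile scaling (0.43) and library size alone (0.36). The adjusted p was 0.0533 when FP library 2 was left out, 0.0903 when PBS library 2 was, 0.082 when PBS library 3 was, and 0.0943 with FP libraries 3 and 4 only. The other U7 subunit, Lsm11, stood at -0.22 ± 0.13 (adjusted p = 0.199), with 17.4, 18.2, 18.8 and 18.1 CPM in FP and 19, 24 and 20.1 CPM in PBS libraries. Upper-quartile scaling gave -0.42 and a call as lower (adjusted p = 0.0252), and so did library size alone, at -0.48 (adjusted p = 0.0262). Eri1, the nuclease that trims the histone stem-loop, rose by 0.99 ± 0.14 (adjusted p = 0.000424). Pou2f1, the octamer-binding factor Oct-1, was the 1 gene of the list that fell, with 104, 91.4, 102 and 104 CPM in FP and 153, 151 and 172 CPM in PBS libraries (-0.66 ± 0.09, adjusted p = 0.000281). All its FP libraries lay below all its PBS libraries.

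Histone genes outside the clusters, most of whose mRNAs carry poly-A tails and are made outside S phase too, showed smaller differences. Of 9 tested, 7 were higher and 0 lower, with a median of 0.95. H2afx, the H2A variant phosphorylated at DNA breaks, had the largest value (3.44), followed by H2afz (1.86), a variant at promoters, and Cenpa (1.50), the centromeric H3. H3f3b, an H3.3 gene, stood at 0.34 and H2afj at -0.04, and neither passed the test.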

How the data were processed

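RNA of 7 libraries was measured. Per the submitters' processing notes and the series' design text, the authors mapped reads to GRCm38 with STAR (version 2.5.0b in the notes) and assigned them to the genes of GENCODE M13 using featureCounts 1.5.0. The libraries were made from 25 ng of total RNA after removal of ribosomal RNA, per the labels. What the authors deposited is 1 table of raw, unnormalized counts. Strand setting and the handling of reads that map to several places are not given in the sources used here.

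Counts were tested with edgeR 4.0.16 (R 4.3.3) by filterByExpr, TMM scaling and the robust quasi-likelihood test, with Benjamini-Hochberg adjustment over 15954 genes and a threshold of 0.05. The script was tested on simulated data. CPM use TMM-scaled library sizes, and SE were taken from the F statistic. Class sums and shares carry no test. A count of 0 allows up to 3 counts, 0.214 to 0.322 CPM on those sizes, which covers counting error alone. Symbols, positions, overlaps, 75-base uniqueness and stem-loops came from GENCODE M21 transcripts of the same build, and promoters from RefSeq.

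Full statistics are given for the 3 most abundant tested members of each class, the largest and smallest fold change of each class, members that did not pass, all tested members of Hist2, Hist3 and Hist4, and 11 machinery genes (the 6 with the smallest p and 6 chosen by role, 1 of them in both). The members and lists were chosen with earlier results of these data known. Other scalings, filters, tests (DESeq2 1.42.0, limma-voom from limma 3.58.1), left-out libraries and a replicate block were tried. No proteins or genome sequence were used.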

Additional observations from a re-analysis of the deposited data

Results flagged for a closer look

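The FP value of 48 genes or sums was checked for a library far from the other 3, and chance alone flags about 1 in 20. The level of Hist2h4 in FP library 4 was 127 CPM, below the 335 to 368 CPM of the other FP libraries, and all 4 lay above the 19.2 to 25.8 CPM of PBS libraries. FP library 4 was the lowest of its group in 50 of the 52 tested histone genes. The level of Pou2f1 in FP library 2 was 91.4 CPM, below the 102 to 104 CPM of the other FP libraries, and all 4 lay below the 151 to 172 CPM of PBS libraries. The q-value, which allows for the many values checked, was 0.861 for Hist2h4 and 0.872 for Pou2f1, so neither stands out.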

How the results depend on the processing

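The 50 histone genes called higher were the same 50 under every alternative tried, except that Hist2h2ab was lost in the limma-voom test, without PBS replicate 2, without PBS replicate 3 and with FP replicates 3 and 4 only (49 each), and Hist1h4m was added with no low-count filter (51). No class sum and no gene with full statistics changed sign. Histone genes called lower numbered 1 with upper-quartile scaling (Hist2h2be), 2 with library size alone (Hist2h2be and Hist3h2a), 1 with FP replicates 3 and 4 only (Hist3h2a), and 0 to 1 when 1 library was left out (Hist3h2a without FP replicate 1). By class and cluster, that is 1 for H2B and for Hist2 with either scaling, 1 for H2A and for Hist3 with library size alone or FP replicates 3 and 4 only, and 0 to 1 for H2A and Hist3 with 1 library left out. Over all genes, 4823 were lower with upper-quartile scaling, and 2032 were higher and 5033 lower with library size alone, so that lower calls outnumbered higher ones under both scalings. Leaving out 1 library gave 1774 to 3390 lower, the fewest without PBS replicate 3, and 1869 without PBS replicate 2. Machinery genes numbered 14 higher and 3 lower with upper-quartile scaling and with library size alone, and 13 to 22 higher with 1 library left out. Of the other RNAs without a poly-A tail, 2 were higher with the replicate block and 3 lower with FP replicates 3 and 4 only, a comparison chosen after seeing the data. Causes of these shifts were not tested, beyond fewer libraries in those left out.

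The column headers number the samples of both groups in a single run, and replicate numbers follow that order within each group. The headers name no pairs, and the correlations did not settle whether replicate numbers pair the libraries. Same-numbered FP and PBS libraries correlated at 0.121, 0.085 and 0.221, and the other combinations at -0.223 to 0.115. For each PBS library the same-numbered FP library correlated best, but FP 2 correlated better with PBS 1 (0.115) than with PBS 2 (0.085). With the replicate number as a block, over 6 libraries, 50 histone genes were higher and 0 lower, as in the same 6 libraries with no block. Over all genes 4093 were higher with the block and 3888 without it. Depth limits the H2A genes at PBS levels near 3 counts, and the genes with few unique stretches.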
